A study of Mus musculus with 12 samples.

Results

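The collagen genes are the genes whose symbol is Col, a number, a and a number, such as Col1a1. Among the genes with a probe set that carries a single gene symbol, 42 of 18193 had such a symbol, and each was read from its brightest probe set over the 12 arrays. Of the 42, 27 were bright enough to enter the tests, which ran over 12760 genes, and 15 were too dim. The 27 comprise 8 fibrillar collagens (Col1a1, Col1a2, Col2a1, Col3a1, Col5a1, Col5a2, Col5a3 and Col27a1), 5 collagens of the basement membrane network (Col4a1, Col4a2, Col4a4, Col4a5 and Col4a6) and the 2 multiplexins Col15a1 and Col18a1. They also comprise 3 beaded filament collagens (Col6a1, Col6a2 and Col6a3), 5 fibril associated collagens (Col12a1, Col14a1, Col16a1, Col20a1 and Col22a1), the transmembrane Col13a1 and Col23a1, the anchoring fibril Col7a1 and the short chain Col8a2.

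Collagens are triple helical proteins of the extracellular matrix. Fibrillar collagens assemble into the cable-like fibrils that give tissue its tensile strength, type IV collagens form the sheet-like network of basement membranes, and type VI collagens form beaded filaments close to cells. In the liver, hepatic stellate cells, portal fibroblasts and sinusoidal endothelial cells are the main sources, and transforming growth factor beta 1 (TGF-beta1) is known as a strong inducer of fibrillar collagen in activated stellate cells. Interferon gamma (IFN-gamma), the cytokine of type 1 T helper cells, is known to lower collagen transcription in cultured fibroblasts and stellate cells.

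Liver RNA of 12 BALB/c mice was hybridised to 12 arrays of 45101 probe sets, with 3 mice in each of 4 groups. The groups, as labelled, were IFNko TGFB1 KO (knockout for Ifng and Tgfb1), INFko TGFB+ (knockout for Ifng, with Tgfb1 kept), TGFB KO (knockout for Tgfb1, with Ifng kept) and wild type. The study concerned acute autoimmune hepatitis, and its design describes the mice that keep Tgfb1 as littermate controls. Age and treatment are not given, and how many intact Tgfb1 copies (1 or 2) the INFko TGFB+ animals have is not stated in the labels. Levels below are signals, in the arbitrary units of the deposited table after quantile normalisation, and fold changes are on the log2(signal + 16) scale, which understates the change of dim genes. In liver tissue, fewer cells of a type and less RNA per cell cannot be told apart. Values follow the order of replicates 1, 2 and 3, and adjusted p comes from limma with Benjamini-Hochberg correction across the 12760 genes. A gene is said to rise or fall where its adjusted p was under 0.05.

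The targeted gene Tgfb1 was read first, with signals of 16.5, 50.5 and 45.1 in IFNko TGFB1 KO against 226, 169 and 188 in INFko TGFB+, and of 72.4, 88.8 and 48.1 in TGFB KO against 396, 460 and 118 in wild type. It was lower in the knockouts without overlap in both comparisons, by log2 fold changes of -2.04 ± 0.44 (SE) and -1.82 ± 0.44. The Ifng probe set read 56.9, 52.1 and 45.9 in the libraries labelled IFNko TGFB1 KO, against 7.91, 1.60 and 8.83 in INFko TGFB+, higher by 1.63 ± 0.30 (adjusted p = 0.00243, limma). Ifng reached the limit on dim probe sets, 5.25 on the log2 scale, through the Tgfb1 knockouts. INFko TGFB+ averaged 4.45 and wild type 5.02 on that scale, so this higher level is given as a description. Every IFNko TGFB1 KO array lay below the TGFB KO arrays, at 87.4, 95.2 and 199.98, but the difference of -1.01 ± 0.30 did not pass (adjusted p = 0.0784, limma). INFko TGFB+ overlapped wild type, at 19.4, 25.3 and 7.14 (-0.57 ± 0.30, adjusted p = 0.91, limma). The sources used here do not place this probe set relative to the disrupted part of Ifng, and it therefore checks the label neither way. The 8 hepatocyte markers summed to between 110213 and 148647 on every array. Apoa1, the brightest of them, read 30060 on every array. Quantile normalisation gives the same value to a probe set of the same rank on each array, so this steadiness was not measured. The sum therefore says little of single genes. Within that sum, Serpina1c and Cps1 were lowest on IFNko TGFB1 KO 2, at 6756 and 6241. Median signal was 61.3 on IFNko TGFB1 KO 1 and 33.8 to 42.6 on the other 11 arrays, and the rank correlations of that array with the others were 0.754 to 0.809, below the 0.816 to 0.912 among the 11. The muscle gene Acta1 was bright on wild type 2 (1970) and IFNko TGFB1 KO 2 (1046) alone, against 4.87 to 120 on the other arrays.

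Upstream sequence is shown for some of the collagens compared below. Col1a2 is fibrillar and rose in IFNko TGFB1 KO against INFko TGFB+. Col3a1 is fibrillar and rose, near the threshold, in IFNko TGFB1 KO against TGFB KO. Col4a5 and Col4a4 are network collagens that were low in TGFB KO. The upstream sequences used here include none for Col1a1, Col5a2 or Col14a1. Each run is read 5′ to 3′ on the strand of the gene and ends at the base before the RefSeq start, so that it holds no exon of the gene (RefSeq, GRCm38.p6, from the reference strain and not from these mice). Capitals mark matches on either strand to the GC box GGGCGG, the CCAAT box CCAAT and the TATA motif TATAAA. The Col4a4 run is shorter because the start of its neighbour Col4a3, transcribed the other way, lies 71 bases off.
Col1a2, chr6:4505368-4505617, plus strand: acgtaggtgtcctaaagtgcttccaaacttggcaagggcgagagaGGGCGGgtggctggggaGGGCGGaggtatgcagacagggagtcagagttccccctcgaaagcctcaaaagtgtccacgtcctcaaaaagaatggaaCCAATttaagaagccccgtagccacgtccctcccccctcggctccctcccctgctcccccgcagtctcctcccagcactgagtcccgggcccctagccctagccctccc
Col3a1, chr1:45311288-45311537, plus strand: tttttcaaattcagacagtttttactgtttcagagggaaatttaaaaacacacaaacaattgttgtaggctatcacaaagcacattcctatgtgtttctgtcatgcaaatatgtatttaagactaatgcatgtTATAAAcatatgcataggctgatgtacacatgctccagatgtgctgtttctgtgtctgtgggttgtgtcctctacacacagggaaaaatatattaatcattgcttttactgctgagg
Col4a5, chrX:141475169-141475418, plus strand: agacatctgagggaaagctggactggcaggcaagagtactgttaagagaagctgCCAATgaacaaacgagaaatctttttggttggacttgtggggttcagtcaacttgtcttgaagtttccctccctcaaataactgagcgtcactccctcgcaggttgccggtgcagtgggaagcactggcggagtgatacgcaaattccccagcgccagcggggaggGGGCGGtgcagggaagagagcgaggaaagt
Col4a4, chr1:82586850-82586920, minus strand: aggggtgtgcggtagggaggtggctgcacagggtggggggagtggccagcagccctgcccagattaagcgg
The Col1a2 run holds 1 CCAAT and 2 GGGCGG, the Col3a1 run 1 TATAAA, the Col4a5 run 1 CCAAT and 1 GGGCGG, and the Col4a4 run none of the 3. Over all upstream windows of 250 bases, CCAAT was present in 33.8%, GGGCGG in 32.7% and TATAAA in 12.4% of 32851. Of the 36 windows of 33 collagen genes in that table, 13 held CCAAT, 21 held GGGCGG and 5 held TATAAA. The palindrome GTCTAGAC, a binding motif of the Smad proteins that carry TGF-beta signals, was in 0 of the 36 windows and in 0.167% of all. These are counts of letters in a window and do not show binding.

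**Figure D1:**
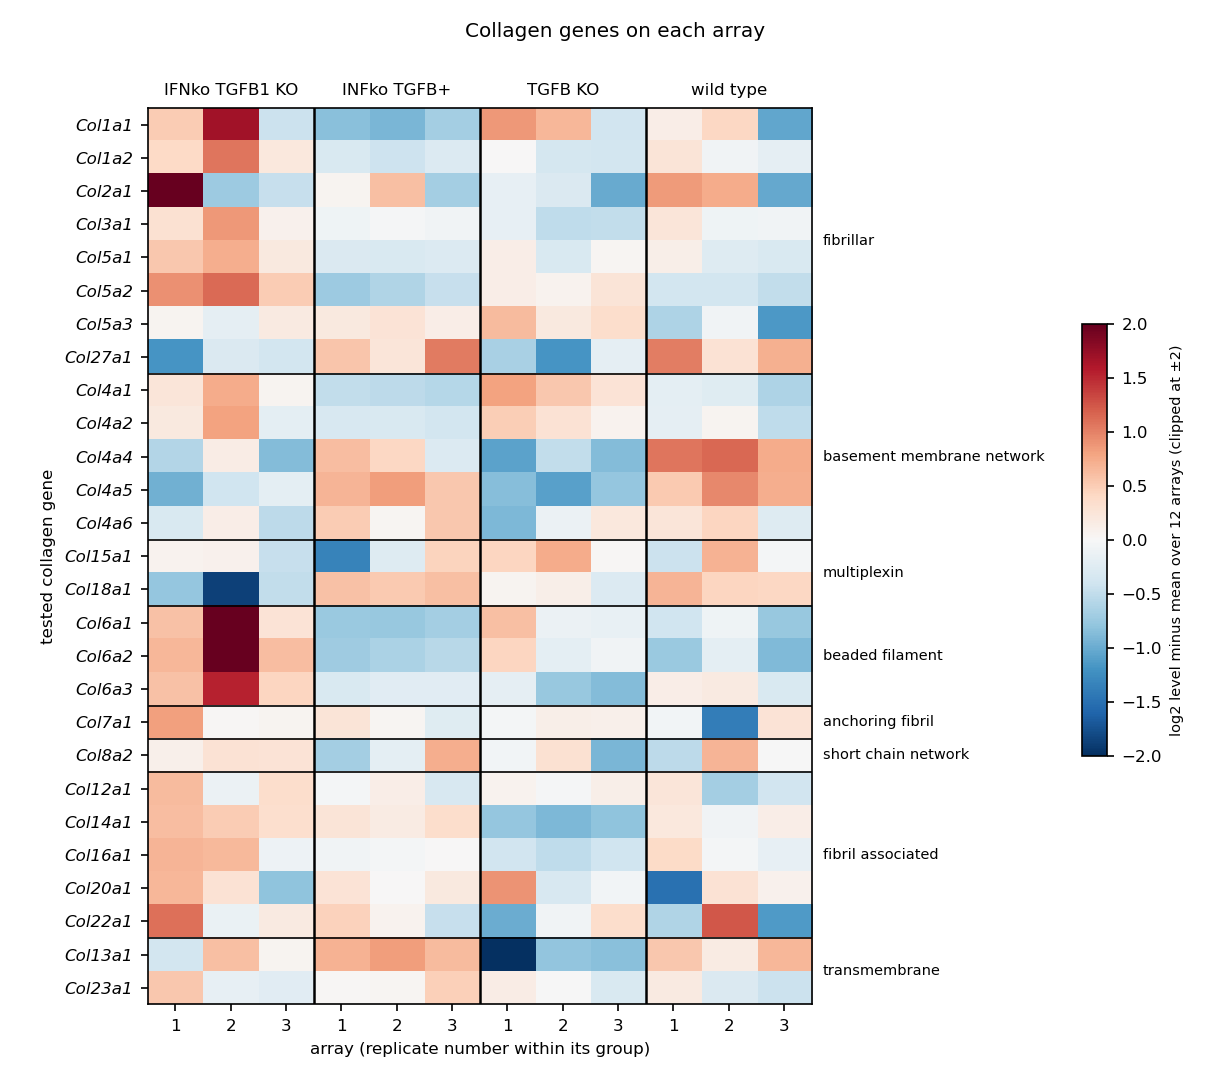
Level of each of the 27 tested collagen genes (rows, grouped by class) on each of the 12 arrays (columns, numbered by replicate within its group), as the log2(signal + 16) level minus the mean of that gene over the 12 arrays, with colours clipped at -2 and 2. Red marks levels above the mean of the gene and blue levels below it. Col6a1, Col6a2 and Col6a3 were highest on IFNko TGFB1 KO 2, as were Col1a1, Col1a2, Col3a1, Col4a2, Col5a1 and Col5a2.

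Loss of Tgfb1 with Ifng kept was addressed by TGFB KO against wild type. In this comparison 8 of the 27 collagen genes passed the test (29.6%, against 24.1% of all genes tested), 3 higher and 5 lower (12.2% and 11.9% of all genes). Col4a1, a network collagen, and the fibrillar Col5a2 and Col5a3 rose. Col4a4 and Col4a5, the fibrillar Col27a1, the fibril associated Col14a1 and the transmembrane Col13a1 fell. Col4a4 entered the tests through the groups that kept Tgfb1, where it was higher, so its fall is counted as a description. The abundant fibril forming genes of type I and type III collagen did not pass. The median log2 fold change of the 27 was -0.07, close to -0.06 over all genes. All 3 TGFB KO arrays lay above all wild type arrays for 4 of the 27 (18.4% of all genes) and below them for 8 (21.9% of all genes).

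Col1a1, which encodes the alpha 1 chain of type I collagen, had signals of 1778, 1551 and 743 in TGFB KO against 1070, 1299 and 464 in wild type. The groups overlapped, and the log2 fold change was 0.55 ± 0.52 (adjusted p = 0.496, limma). Col1a2, the alpha 2 chain, had 2873, 2225 and 2194 in TGFB KO against 3410, 2703 and 2498 in wild type (-0.24 ± 0.23, adjusted p = 0.504, limma). Col3a1, which forms the type III homotrimer of reticular fibres, had 6241, 4927 and 4977 in TGFB KO against 8257, 6628 and 6643 in wild type. Its TGFB KO arrays all lay below the wild type ones, but the log2 fold change of -0.41 ± 0.21 did not pass (adjusted p = 0.174, limma).

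Type V collagen regulates the diameter of type I fibrils. Col5a2, its alpha 2 chain, had signals of 802, 775 and 878 in TGFB KO against 567, 565 and 517 in wild type, and rose by 0.56 ± 0.18 (adjusted p = 0.0408, limma). The arrays did not overlap, but this call was lost under 13 of 21 alternative settings, and a dimmer Col5a2 probe set changed by -0.25. Col5a3 had 84.1, 58.0 and 66.5 in TGFB KO against 26.1, 45.5 and 13.1 in wild type, a rise of 1.01 ± 0.25 (adjusted p = 0.0118, limma). Without TGFB KO 1 it no longer passed (adjusted p = 0.0508, limma), and its other probe set, below the limit for dim probe sets, changed by -1.06. Col5a1 overlapped between the groups, at 732, 532 and 686 in TGFB KO against 721, 551 and 533 in wild type. Col27a1, a fibrillar collagen of cartilage, had 102, 65.7 and 147 in TGFB KO against 361, 210 and 288 in wild type, and fell by 1.34 on the log2 scale (SE 0.33).

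The 6 type IV chains are encoded by genes that lie in neighbouring pairs, Col4a1 with Col4a2, Col4a3 with Col4a4 and Col4a5 with Col4a6. Col4a1, a chain present in nearly all basement membranes, had signals of 3733, 3100 and 2570 in TGFB KO against 1853, 1800 and 1385 in wild type. All TGFB KO arrays were above all wild type arrays, and the gene rose by 0.89 ± 0.21 (adjusted p = 0.0108, limma). Its partner Col4a2 had 1416, 1226 and 1054 in TGFB KO against 888, 1047 and 702 in wild type, with no overlap either, and at 0.49 ± 0.25 did not pass (adjusted p = 0.178, limma). Col4a5, a chain best known from the kidney filter, had 70.1, 57.6 and 75.1 in TGFB KO against 208, 287 and 241 in wild type. It fell by 1.64 on the log2 scale (SE 0.21, adjusted p = 0.000271, limma). Col4a4 was dim, at 2.84, 11.9 and 5.62 in TGFB KO against 67.1, 71.6 and 49.7 in wild type, and fell by 1.80 on the log2 scale (SE 0.30). Its mean log2 level of 5.30 was just above the limit of 5.25, and the groups that kept Tgfb1 brought it there. The fall of Col4a4 is therefore given as a description. Col4a6, the neighbour of Col4a5, overlapped between TGFB KO and wild type at -0.40 and did not pass.

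Col14a1, a fibril associated collagen that binds the surface of type I fibrils, had signals of 925, 839 and 897 in TGFB KO against 1831, 1502 and 1737 in wild type. The 3 TGFB KO arrays lay far below the lowest wild type array, and the gene fell by 0.91 on the log2 scale (SE 0.15, adjusted p = 0.00124, limma). A pair of further Col14a1 probe sets were lower as well, at -1.05 and -2.59. Col16a1, of the same class, had 97.6, 88.7 and 96.6 in TGFB KO against 177, 129 and 117 in wild type and did not pass (adjusted p = 0.132, limma). Col13a1, a collagen anchored in the cell membrane, had 1.70, 31.3 and 29.9 in TGFB KO against 103, 76.1 and 114 in wild type, and fell by 1.74 on the log2 scale (SE 0.36). Col18a1, whose C-terminal fragment is endostatin and which hepatocytes are known to express, had 3211, 3328 and 2546 in TGFB KO against 4958, 4142 and 4134 in wild type. It was lower on every TGFB KO array but did not pass (-0.54 ± 0.29, adjusted p = 0.207, limma), while its other probe set was lower by 1.22 at an unadjusted p of 0.00104 (limma). The beaded filament genes did not pass, with Col6a1 at 0.53, Col6a2 at 0.65 and Col6a3 at -0.61.

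**Figure D2:**
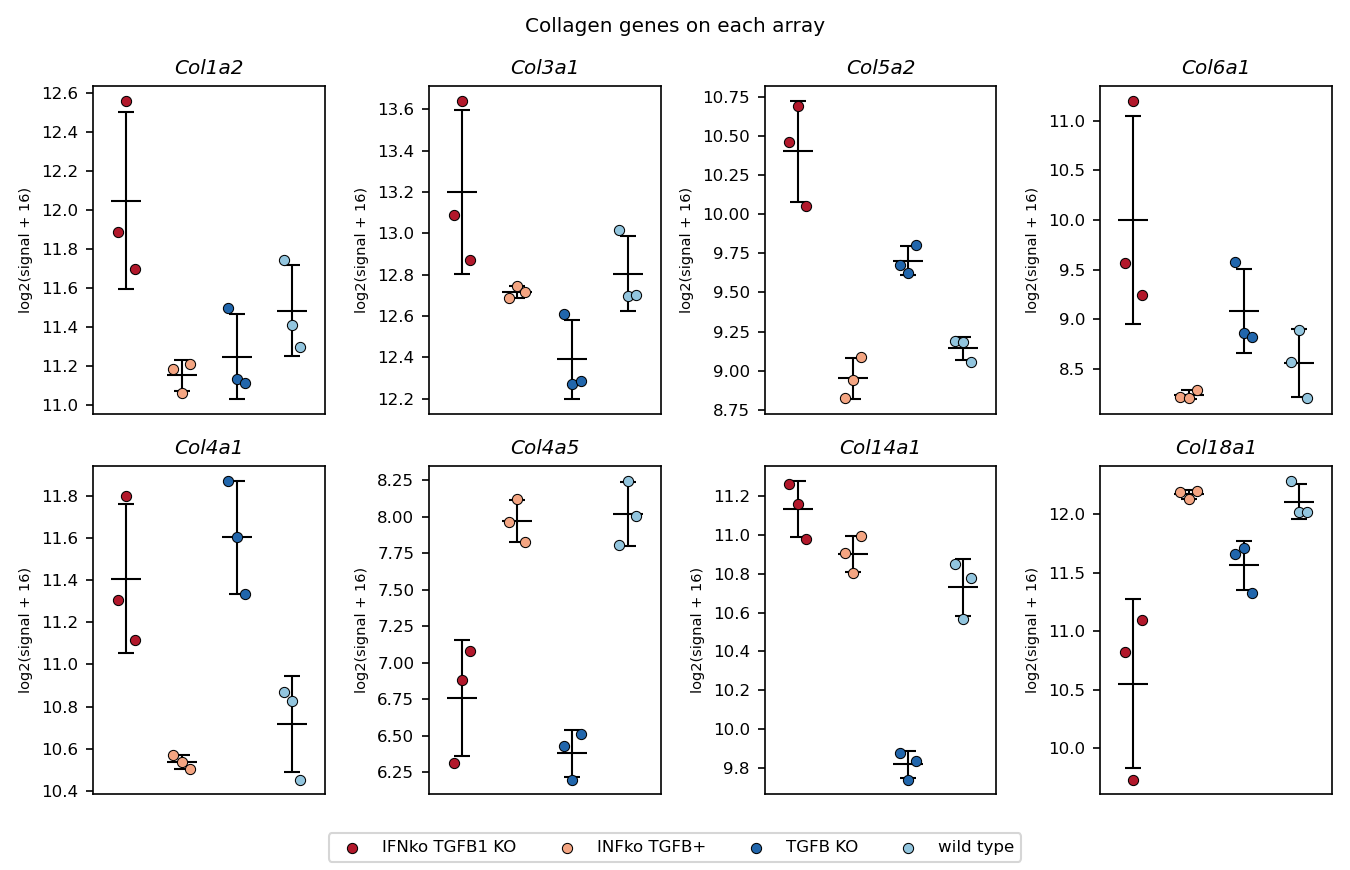
Levels of Col1a2, Col3a1, Col5a2, Col6a1, Col4a1, Col4a5, Col14a1 and Col18a1 on each array as log2(signal + 16), with groups from left to right IFNko TGFB1 KO, INFko TGFB+, TGFB KO and wild type. Points are arrays, the long bar is the mean and the short bars are ± 1 SD (n = 3). Each panel has its own scale, which does not start at 0, and Col4a1 is high and Col4a5 low in both Tgfb1 knockouts, whereas Col14a1 is low in TGFB KO.

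Loss of Tgfb1 in mice labelled as Ifng knockouts was addressed by IFNko TGFB1 KO against INFko TGFB+. Here 10 of the 27 collagen genes passed (37.0%, against 25.8% of all genes), 7 higher and 3 lower (12.7% and 13.1% of all genes). The fibrillar Col1a2, Col5a1 and Col5a2, the network gene Col4a1 and all 3 tested beaded filament genes rose. Col27a1, Col4a5 and Col18a1 fell. The median log2 fold change was 0.31 over the 27 collagens and -0.01 over all genes. The arrays were higher without overlap for 10 of the 27 (22.2% of all genes) and lower for 4 (23.3% of all genes), and without IFNko TGFB1 KO 1, 9 genes passed. With each array centred on its median in place of quantile normalisation, 3 rose and 3 fell: Col1a2, Col4a1, Col5a1 and Col6a3 no longer passed (adjusted p = 0.358, 0.331, 0.233 and 0.127, limma), and the median over all genes was then -0.15.

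Col1a2 had signals of 3768, 6014 and 3297 in IFNko TGFB1 KO against 2309, 2121 and 2353 in INFko TGFB+. Every IFNko TGFB1 KO array was above every INFko TGFB+ array, and the gene rose by 0.89 ± 0.23 (adjusted p = 0.0141, limma). It was also lost at the deposited scaling (adjusted p = 0.0569), with the mean of its probe sets (0.126) and without INFko TGFB+ 2 (0.0543), all limma. Col1a1 had 1390, 3137 and 716 in IFNko TGFB1 KO against 536, 508 and 603 in INFko TGFB+. These did not overlap, and the wide spread of the knockout arrays gave 1.39 ± 0.52 (adjusted p = 0.0704, limma), which passed with a pseudocount of 64 (0.0434), with a replicate block (0.0252) and without IFNko TGFB1 KO 3 (0.0162). Col3a1 had 8681, 12748 and 7475 in IFNko TGFB1 KO against 6581, 6859 and 6704 in INFko TGFB+, higher on every array at 0.48 ± 0.21 and not called (adjusted p = 0.112, limma) except without IFNko TGFB1 KO 3 (0.0432).

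Col5a2 showed the smallest adjusted p among the collagens in this comparison. Its signals were 1391, 1635 and 1045 in IFNko TGFB1 KO against 437, 476 and 528 in INFko TGFB+, and it rose by 1.45 ± 0.18 (adjusted p = 0.000261, limma), with the dimmer probe set at 0.72. Col5a1, the alpha 1 chain, had 975, 1105 and 758 in IFNko TGFB1 KO against 538, 532 and 544 in INFko TGFB+ and rose by 0.78 ± 0.19. Col5a3, in contrast, overlapped at -0.19 ± 0.25 (adjusted p = 0.624, limma). Col27a1 had 65.5, 135 and 128 in IFNko TGFB1 KO against 256, 204 and 365 in INFko TGFB+ and fell by 1.23 on the log2 scale (SE 0.33, adjusted p = 0.0173, limma). Without IFNko TGFB1 KO 1 it no longer passed (adjusted p = 0.0587, limma), nor without INFko TGFB+ 3 (0.0735).

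The beaded filament genes encode the chains of type VI collagen, which links cells to the surrounding matrix. Col6a1 had signals of 741, 2334 and 592 in IFNko TGFB1 KO against 283, 280 and 297 in INFko TGFB+, and rose by 1.76 ± 0.42 (adjusted p = 0.0101, limma). Col6a2 had 940, 2873 and 909 in IFNko TGFB1 KO against 350, 370 and 395 in INFko TGFB+ and rose by 1.82 ± 0.38 (adjusted p = 0.00515, limma). Col6a3 had 915, 1785 and 821 in IFNko TGFB1 KO against 486, 514 and 516 in INFko TGFB+ and rose by 1.10 ± 0.29 (adjusted p = 0.0151, limma). None of the 3 overlapped between these groups, and all 3 were highest on IFNko TGFB1 KO 2, which like wild type 2 had bright Acta1. On wild type 2 they read 459, 511 and 687, and a link to Acta1 was not tested. Without IFNko TGFB1 KO 2 they rose by 1.17 (adjusted p = 0.012), 1.29 (0.00489) and 0.77 (0.0425), all limma. The peak was not particular to type VI: Col1a1, Col1a2, Col3a1, Col4a2, Col5a1 and Col5a2 were also highest on IFNko TGFB1 KO 2.

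Col4a1 had 2516, 3560 and 2202 in IFNko TGFB1 KO against 1504, 1470 and 1433 in INFko TGFB+ and rose by 0.87 ± 0.21 (adjusted p = 0.0111, limma). Col4a2 had 1147, 1762 and 874 in IFNko TGFB1 KO against 799, 810 and 776 in INFko TGFB+, above it on every array, and did not pass (0.60 ± 0.25, adjusted p = 0.0988, limma) except without IFNko TGFB1 KO 3 (0.0254). Col4a5 had 63.7, 102 and 120 in IFNko TGFB1 KO against 234, 262 and 211 in INFko TGFB+, well apart, and fell by 1.21 on the log2 scale (SE 0.21, adjusted p = 0.00203, limma). Col4a4 overlapped in this comparison and did not pass (-0.69 ± 0.30, adjusted p = 0.115, limma). Col18a1 had 1793, 836 and 2179 in IFNko TGFB1 KO against 4642, 4454 and 4687 in INFko TGFB+, and fell by 1.62 on the log2 scale (SE 0.29, adjusted p = 0.00223, limma). Its lowest array was again IFNko TGFB1 KO 2, without which it fell by 1.21, and its other probe set changed by -1.39. Col14a1 was at 0.23 ± 0.15 and Col13a1 at -0.63 ± 0.36, and neither passed (adjusted p = 0.29 and 0.228, limma).

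Across the 27 genes the log2 fold changes of these comparisons, which share no arrays, had a Pearson correlation of 0.622 and a Spearman correlation of 0.562, and over all genes the Pearson correlation was 0.732. Genes are not independent replicates, and these values are descriptions. Col5a2, Col4a1, Col27a1 and Col4a5 passed in both comparisons, each with the same direction in both.

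**Figure D3:**
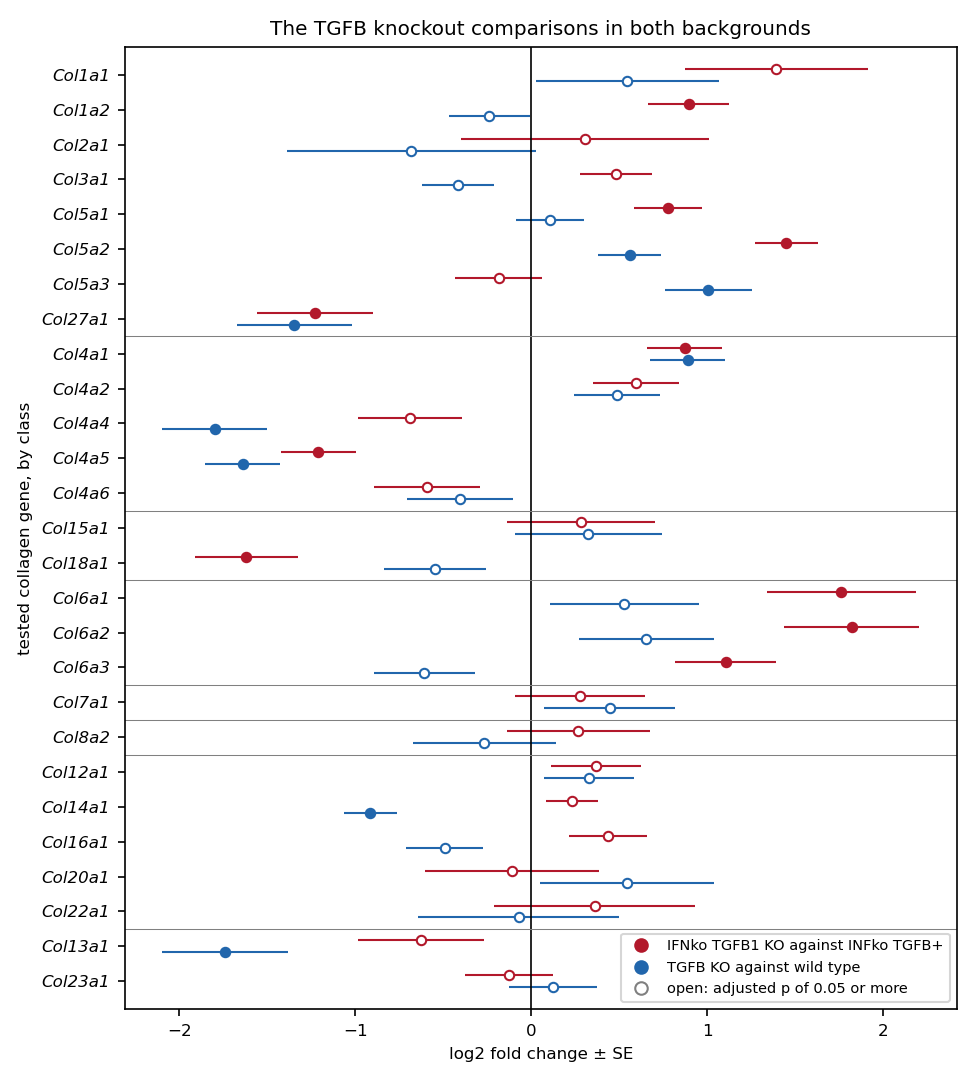
Log2 fold change (horizontal axis, bars ± 1 SE) of each tested collagen gene, by class, for IFNko TGFB1 KO against INFko TGFB+ (red) and for TGFB KO against wild type (blue), with filled points where the adjusted p was under 0.05. Col4a1 and Col27a1 have nearly equal values in both, whereas Col14a1 is at 0.23 and -0.91.

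Whether loss of Tgfb1 acted differently in the mice labelled as Ifng knockouts was tested as the difference of the TGFB effects. Col14a1 alone passed, 1 of 27 (3.70%, against 0.87% of all genes), with a difference of 1.15 ± 0.21 (adjusted p = 0.0308, limma). Its signals were 2438, 2272 and 2001 in IFNko TGFB1 KO against 1902, 1774 and 2020 in INFko TGFB+, which overlap, and fell to 925, 839 and 897 in TGFB KO against 1831, 1502 and 1737 in wild type. The call was lost under 14 of 21 alternatives, among them median centring (0.67, adjusted p = 0.465, limma), under which the median over all genes was -0.25. It was also lost without IFNko TGFB1 KO 1 (adjusted p = 0.066, limma). For Col6a3 the difference was 1.71 ± 0.41 (adjusted p = 0.0892, limma), for Col1a2 1.13 ± 0.32 (0.172), for Col3a1 0.90 ± 0.29 (0.238) and for Col5a2 0.89 ± 0.25 (0.167), and none of these passed. The difference was positive for 19 of the 27 collagens and for 50.8% of all genes.

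The knockouts of Tgfb1 were also compared with each other. In IFNko TGFB1 KO against TGFB KO, 5 of 27 collagen genes passed (18.5%, against 5.36% of all genes), all of them higher (2.54% of all genes, with 2.82% lower): Col3a1, Col5a2, Col6a3, Col14a1 and Col13a1. With the deposited scaling 4 rose and 1 fell, and with median centring 2 rose and 1 fell, when the median over all genes was -0.14. Col14a1, with 2438, 2272 and 2001 in IFNko TGFB1 KO against 925, 839 and 897 in TGFB KO, rose by 1.32 ± 0.15 (adjusted p = 0.000485, limma) and passed under all 21 alternatives. Its further probe sets were at 1.15 and 1.49. Col6a3, at 915, 1785 and 821 in IFNko TGFB1 KO against 533, 350 and 323 in TGFB KO, rose by 1.46 ± 0.29 (adjusted p = 0.0142, limma), and was lost under median centring and without TGFB KO 2 or TGFB KO 3 (0.0808, 0.0574 and 0.0505).

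The other calls of this comparison lay near the threshold. Col3a1, at 8681, 12748 and 7475 in IFNko TGFB1 KO against 6241, 4927 and 4977 in TGFB KO, did not overlap and rose by 0.81 ± 0.21 (adjusted p = 0.0454, limma). Col5a2, at 1391, 1635 and 1045 in IFNko TGFB1 KO against 802, 775 and 878 in TGFB KO, rose by 0.70 ± 0.18 (0.0457). Col13a1, at 47.7, 108 and 68.6 in IFNko TGFB1 KO against 1.70, 31.3 and 29.9 in TGFB KO, rose by 1.37 ± 0.36 (0.0485). These calls were lost under 15, 16 and 14 of the 21 alternatives. Leaving out any TGFB KO array, for instance, ended each of them. Col1a2 at 0.80 ± 0.23 (adjusted p = 0.0697, limma) and Col16a1 at 0.84 ± 0.22 (0.0507) did not pass, and neither did Col4a1 at -0.20 and Col1a1 at 0.20. The median log2 fold change was 0.38 over the 27 and 0.02 over all genes, and the arrays were higher without overlap for 9 of the 27 (13.2% of all genes) and lower for 2 (9.92% of all genes). This comparison shares its arrays with those above.

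By class, the median log2 fold change of the 8 fibrillar genes was 0.63 in IFNko TGFB1 KO against INFko TGFB+ (3 rose, 1 fell), -0.06 in TGFB KO against wild type (2 rose, 1 fell) and 0.61 in IFNko TGFB1 KO against TGFB KO (2 rose). For the 5 network genes the medians in the same order were -0.59 (1 rose, 1 fell), -0.40 (1 rose, 2 fell) and 0.04 (none passed). The 2 that fell include Col4a4, counted as a description. For the 3 beaded filament genes they were 1.76 (3 rose), 0.53 (none passed) and 1.14 (1 rose). For the 5 fibril associated genes they were 0.36 (none passed), -0.07 (1 fell) and 0.62 (1 rose). The network class was split within itself, with Col4a1 and Col4a2 positive and Col4a4, Col4a5 and Col4a6 negative in both TGFB comparisons. The classes were not tested against each other.

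Loss of Ifng where Tgfb1 is kept was addressed by INFko TGFB+ against wild type. None of the 27 collagens passed, and 0% of all genes did so (limma), while 2 collagens and 650 of all genes had an unadjusted p under 0.05. The 2 were Col5a3 (0.81 ± 0.25, unadjusted p = 0.00652, limma) and the dim Col4a4 (-0.73 ± 0.30, unadjusted p = 0.0313, limma). Col5a3 read 58.1, 62.5 and 54.4 in INFko TGFB+, above every wild type array, as it was in TGFB KO. Its dimmer probe set changed by -0.71. The median log2 fold change was -0.09 over the collagens and 0.00 over all genes. The log2 fold changes were -0.65 ± 0.52 for Col1a1, -0.33 ± 0.23 for Col1a2 and -0.09 ± 0.21 for Col3a1 (adjusted p = 0.91, 0.91 and 0.972, limma).

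Of the 27 tested genes, 15 passed in at least 1 comparison and 12 in none. The share of all genes that passed in at least 1 comparison is not given here. It cannot be below the 25.8% that passed in IFNko TGFB1 KO against INFko TGFB+ alone. The 15 are therefore not read as a trait of collagens. The 12 that passed in none were Col1a1, Col2a1, Col4a2, Col4a6, Col15a1, Col7a1, Col8a2, Col12a1, Col16a1, Col20a1, Col22a1 and Col23a1. Several of these were near the limit of detection: Col7a1, the anchoring fibril collagen of skin, averaged 44.3 ± 20.2 in IFNko TGFB1 KO, 32.6 ± 8.30 in INFko TGFB+, 33.4 ± 2.88 in TGFB KO and 24.4 ± 20.1 in wild type (SD, n = 3). The short chain Col8a2, known from the cornea and vessel walls, averaged 28.6 ± 3.30 in IFNko TGFB1 KO, 24.3 ± 20.7 in INFko TGFB+, 18.9 ± 13.6 in TGFB KO and 25.9 ± 17.5 in wild type. The 15 dim genes were the fibrillar Col11a1, Col11a2 and Col24a1, the network gene Col4a3, the beaded filament genes Col6a4 and Col6a5, the short chain Col8a1 and Col10a1, the fibril associated Col9a1, Col9a2, Col9a3 and Col19a1, the transmembrane Col17a1 and Col25a1, and Col26a1. Without the limit on dim probe sets, 0 of these 15 passed in any comparison, and 0 had an unadjusted p under 0.05 (lowest adjusted p = 0.196, limma).

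Collagen chains are hydroxylated and folded in the endoplasmic reticulum before secretion. Of the 16 tested genes for this step, 4 rose and 1 fell in TGFB KO against wild type, and 2 rose and 3 fell in IFNko TGFB1 KO against INFko TGFB+. Over all genes, 12.2% rose and 11.9% fell in TGFB KO against wild type, 12.7% rose and 13.1% fell in IFNko TGFB1 KO against INFko TGFB+, and 2.54% rose and 2.82% fell in IFNko TGFB1 KO against TGFB KO, shares against which the counts here and below are read. In either direction 5 of 16 passed in each TGFB comparison, near the 24.1% and 25.8% over all genes. P4ha1, a catalytic subunit of prolyl 4-hydroxylase, had signals of 551, 433 and 383 in TGFB KO against 121, 165 and 91.0 in wild type, and rose by 1.75 ± 0.22 (adjusted p = 0.000234, limma). P4ha2, a second such subunit, rose by 1.71 ± 0.36, the lysyl hydroxylase gene Plod2 by 1.37 ± 0.42 and the collagen galactosyltransferase gene Colgalt1 by 0.69 ± 0.21 in TGFB KO. In IFNko TGFB1 KO against INFko TGFB+, Colgalt1 rose by 1.06 ± 0.21 and Crtap, of the prolyl 3-hydroxylase complex, by 0.84 ± 0.24, while P3h1, the enzyme of that complex, fell by 0.98 on the log2 scale. Mia2, of the machinery that exports large cargo, fell by 1.64 there. Between the knockouts, P4ha2 was lower in IFNko TGFB1 KO than in TGFB KO by -1.43 ± 0.36 (adjusted p = 0.0445, limma), the only change among the 16.

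Of the 8 tested genes of propeptide processing and cross-linking, 1 rose and 1 fell in TGFB KO against wild type, and 2 rose and 1 fell in IFNko TGFB1 KO against INFko TGFB+, near the shares over all genes (24.1% and 25.8% in either direction). Bmp1, the procollagen C-proteinase, had 318, 377 and 551 in IFNko TGFB1 KO against 884, 800 and 800 in INFko TGFB+, and 320, 484 and 344 in TGFB KO against 1607, 1041 and 889 in wild type. It fell in both without overlap, with an adjusted p of 0.0149 in IFNko TGFB1 KO and of 0.00135 in TGFB KO (limma), where the log2 fold change was -1.56 ± 0.26. Pcolce2, an enhancer of that proteinase, rose in both, by 1.30 ± 0.24 in IFNko TGFB1 KO and by 0.73 ± 0.24 in TGFB KO. Adamts3, a procollagen N-proteinase, rose by 1.08 ± 0.27 in IFNko TGFB1 KO against INFko TGFB+. Pcolce, the other enhancer, rose by 1.05 ± 0.22 in IFNko TGFB1 KO against TGFB KO, the only change of that comparison among the 8.

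Of 8 tested genes of collagen breakdown and uptake, Mmp13 and Mmp2 differed between the backgrounds. Mmp13, the main interstitial collagenase of mice, had signals of 4.18, 38.9 and 7.77 in IFNko TGFB1 KO against 20.2, 4.74 and 13.5 in INFko TGFB+, and of 757, 360 and 1014 in TGFB KO against 25.2, 2.14 and 13.0 in wild type. It rose by 4.59 ± 0.46 in TGFB KO (adjusted p = 3.92e-05, limma) and was at 0.08 in IFNko TGFB1 KO, a difference of -4.50 ± 0.65 (adjusted p = 0.00793, limma). Its level reached the limit on dim probe sets through TGFB KO alone, since the other groups averaged below it on the log2 scale. A gene that enters the tests this way has to differ, and its values are given as a description. Mmp2, a gelatinase of mesenchymal cells, had 80.5, 79.0 and 102 in TGFB KO against 322, 341 and 335 in wild type, and fell by 1.76 on the log2 scale, whereas its IFNko TGFB1 KO and INFko TGFB+ arrays overlapped (difference 1.78 ± 0.32, adjusted p = 0.0282, limma). In all, 4 rose and 1 fell in TGFB KO against wild type, with Mmp9 at 1.43 ± 0.44 and Fap at 0.98 ± 0.31 among those that rose. In IFNko TGFB1 KO against INFko TGFB+, 2 rose, the neutrophil enzymes Mmp8 (1.29 ± 0.42) and Mmp9 (2.01 ± 0.44). In IFNko TGFB1 KO against TGFB KO, 1 rose and 1 fell, Mmp2 and Mmp13.

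Among 7 tested collagen receptor genes, Lair1 and Ddr1 rose in both TGFB comparisons. Lair1, an inhibitory collagen receptor of leukocytes, had 276, 295 and 403 in TGFB KO against 37.8, 41.4 and 36.1 in wild type (2.63 ± 0.21), and rose by 1.35 ± 0.21 in IFNko TGFB1 KO against INFko TGFB+. Ddr1, a collagen-binding receptor tyrosine kinase, rose by 1.46 ± 0.36 in TGFB KO and by 1.38 ± 0.36 in IFNko TGFB1 KO. Lair1 was lower in IFNko TGFB1 KO than in TGFB KO by -1.31 ± 0.21 (adjusted p = 0.00378, limma). Of 13 tested genes for other basement membrane proteins, 2 fell in TGFB KO, the laminin chains Lama2 (-1.54 ± 0.37) and Lamb3 (-1.10 ± 0.31). In IFNko TGFB1 KO against INFko TGFB+, 2 rose, Nid1 (1.17 ± 0.28), whose product links laminin to type IV collagen, and the laminin chain Lamb1 (0.68 ± 0.20).

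Markers of the cells known to make collagen were read beside these results, and their part in them was not tested. Of 11 stellate cell markers, all tested, 5 fell in TGFB KO against wild type (11.9% of all genes), 1 rose in IFNko TGFB1 KO against INFko TGFB+ (12.7% of all genes, a share near that of the list) and 7 rose in IFNko TGFB1 KO against TGFB KO (2.54% of all genes). Their summed signal was 7053 to 8763 in IFNko TGFB1 KO, 6544 to 6973 in INFko TGFB+, 2960 to 3646 in TGFB KO and 6521 to 8262 in wild type. Reln had 4012, 3647 and 3108 in IFNko TGFB1 KO against 2908, 2595 and 3031 in INFko TGFB+, and 852, 927 and 610 in TGFB KO against 2866, 3896 and 2799 in wild type. Lrat, which makes the retinyl esters stored by stellate cells, had 819, 828 and 583 in IFNko TGFB1 KO against 339, 341 and 363 in INFko TGFB+, and 139, 185 and 181 in TGFB KO against 382, 381 and 400 in wild type. Lrat thus rose by 1.05 ± 0.18 in IFNko TGFB1 KO and fell by 1.14 in TGFB KO on the log2 scale, and Reln fell by 1.98 in TGFB KO. Like Col14a1, Reln and Lrat were low on every TGFB KO array and on no other array.

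Of 5 tested markers of activated myofibroblasts, 4 rose in IFNko TGFB1 KO against INFko TGFB+ (12.7% of all genes), 1 rose in TGFB KO against wild type (12.2%) and 4 rose in IFNko TGFB1 KO against TGFB KO (2.54%). Their list summed to 5964 to 12383 in IFNko TGFB1 KO, 2151 to 2515 in INFko TGFB+, 1787 to 2676 in TGFB KO and 2360 to 2417 in wild type. Postn, a matricellular protein of fibroblasts, had 5921, 8048 and 4365 in IFNko TGFB1 KO against 1425, 1193 and 1422 in INFko TGFB+, and 1307, 912 and 1285 in TGFB KO against 1365, 1439 and 1225 in wild type. It rose by 2.13 ± 0.23 in IFNko TGFB1 KO (adjusted p = 0.000112, limma), with the TGFB KO and wild type arrays overlapping. Pdgfra and Tagln rose there by 1.72 ± 0.21 and 1.61 ± 0.28. Acta2, which encodes smooth muscle actin, was the tested marker that did not pass there. Its signals overlapped, at 1112, 2394 and 695 in IFNko TGFB1 KO against 653, 635 and 703 in INFko TGFB+. Acta2 was among the 4 that rose in IFNko TGFB1 KO against TGFB KO. Timp1, an inhibitor of matrix metalloproteinases, rose in both TGFB comparisons, by 3.17 ± 0.44 in IFNko TGFB1 KO and by 3.04 ± 0.44 in TGFB KO. It was dim where Tgfb1 was kept, averaging 16.1 in INFko TGFB+ and 25.0 in wild type. Timp1 thus reached the limit on dim probe sets through the Tgfb1 knockouts. Its rises, counted above in both TGFB comparisons, are a description.

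**Figure D4:**
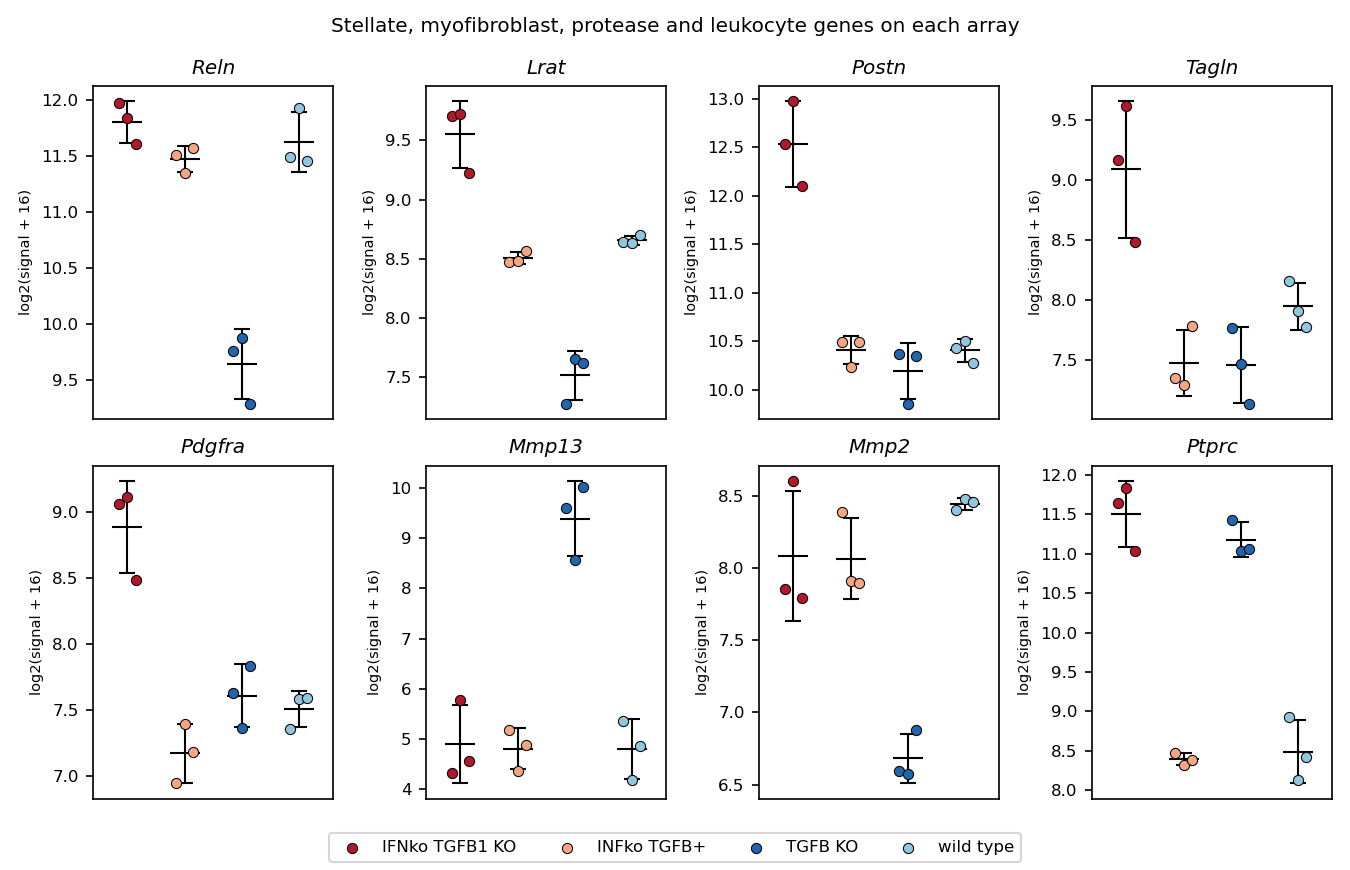
Levels of the stellate cell genes Reln and Lrat, the myofibroblast genes Postn, Tagln and Pdgfra, the metalloproteinases Mmp13 and Mmp2 and the leukocyte gene Ptprc on each array as log2(signal + 16), with groups from left to right IFNko TGFB1 KO, INFko TGFB+, TGFB KO and wild type. Points are arrays, the long bar is the mean and the short bars are ± 1 SD (n = 3), on scales that do not start at 0. Ptprc is high in both Tgfb1 knockouts, Reln and Lrat are low in TGFB KO, and Postn and Pdgfra are high in IFNko TGFB1 KO.

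Markers of other cells were read the same way. Of 8 leukocyte markers, 7 rose in each TGFB comparison (12.7% and 12.2% of all genes), with summed signals of 4315 to 7111 in IFNko TGFB1 KO against 785 to 884 in INFko TGFB+, and 4403 to 4773 in TGFB KO against 894 to 1170 in wild type. Cd4 and Cd3e, counted in the 7, reached the limit on dim probe sets through the Tgfb1 knockouts and are a description. Cd4 averaged 87.4 in IFNko TGFB1 KO, 5.55 in INFko TGFB+, 62.3 in TGFB KO and 7.07 in wild type. For Cd3e these averages were 249, 9.57, 117 and 16.9. Ptprc, which encodes CD45, rose by 3.11 ± 0.25 in IFNko TGFB1 KO and by 2.69 ± 0.25 in TGFB KO. Of 9 sinusoidal endothelial markers, 3 rose in IFNko TGFB1 KO against INFko TGFB+ (12.7% of all genes), 3 rose and 1 fell in TGFB KO against wild type (12.2% and 11.9% of all genes), and 1 rose in IFNko TGFB1 KO against TGFB KO. The hyaluronan receptor gene Lyve1 rose by 1.17 ± 0.22 in IFNko TGFB1 KO and by 1.32 ± 0.22 in TGFB KO. Of 7 portal fibroblast and mesothelial markers, Thy1, which T cells also express in mice, rose in both, by 3.10 ± 0.43 in IFNko TGFB1 KO and by 1.66 ± 0.43 in TGFB KO, and Eln, the elastin gene, fell by 1.45 in TGFB KO on the log2 scale. None of 4 cholangiocyte or of 4 cartilage, bone and muscle markers passed in any comparison. Of 8 hepatocyte markers 2 fell in IFNko TGFB1 KO against INFko TGFB+, Serpina1c (-0.95 ± 0.23) and Cps1 (-0.65 ± 0.21), and of 4 pancreas and gut markers 2 fell there and 3 fell in TGFB KO.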

How the data were processed

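Total RNA of 12 mouse livers was extracted with Trizol and labelled with biotin, per the labels' protocols. The values as deposited are linear intensity, a signal per probe set, and each array has a trimmed mean of 150 without its lowest and highest 2 percent. The sources used here name neither the signal algorithm nor a build. Because log2(signal + 16) medians spanned 0.634 between arrays (limit 0.5), the 12 arrays were quantile normalised after adding a pseudocount of 16. Probe sets with a single symbol (34958, of which 34754 were updated through the RefSeq table of GRCm38.p6) whose mean reached the 40th percentile (log2 5.25) were kept, with the brightest per gene. Detection calls were not analysed here.

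Groups came from the labels, where the first INFko TGFB+ array has no number. Tests used limma 3.58.1 under R 4.3.3 (lmFit on 4 group means from all 12 arrays, then eBayes, with 8 residual and 3.44 prior degrees of freedom), two-sided, with Benjamini-Hochberg adjustment and a threshold of 0.05, in 5 contrasts. Each array is 1 mouse, per the series design. Values after ± are standard errors unless given as SD. Collagens named with values are those past the threshold, the type I, III and IV alpha 1 and 2 genes and the brightest of each class, and for the pathway lists up to 4, for the marker lists up to 3, members with the smallest p per contrast. Genes beyond that (Col16a1, Acta1 and a few others) were chosen after their values were seen. The members and lists were chosen with earlier results of these data known. The procedure was tested on simulated data. Alternatives were other scalings, pseudocounts of 1 and 64, no filter or the 60th percentile, other probe set rules, a replicate block and leaving out each array. Same-numbered arrays deviated together only in part: 4 of 18 pairs correlated over 0.1. Of these, 3 were among the 6 pairs of replicate 3, where the highest was 0.343. As no pairing is stated, none was used in the main fit, and a replicate block was run as an alternative.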

Additional observations from a re-analysis of the deposited data

Results flagged for a closer look

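The effect of Tgfb1 loss differed between the backgrounds for 1 of 27 collagens and 8 genes of the other lists, by a test of the difference (IFNko TGFB1 KO minus INFko TGFB+, less TGFB KO minus wild type, log2, limma with Benjamini-Hochberg adjustment). Of all genes, 0.87% passed this test. The 8 were 2 of 11 stellate cell, 3 of 5 myofibroblast, 2 of 8 breakdown and uptake and 1 of 8 leukocyte genes, and the other lists had none. Mmp13, counted in the 8, is a description. Col14a1 differed by 1.15 (adjusted p = 0.0308), with effects of 0.23 in IFNko TGFB1 KO and -0.91 in TGFB KO. The stellate cell genes Lrat and Reln differed by 2.19 (adjusted p = 0.00204) and 2.31 (0.00357). The myofibroblast genes Postn, Pdgfra and Tagln differed by 2.34 (adjusted p = 0.00641), 1.62 (0.0308) and 2.10 (0.0321). The collagenase gene Mmp13, which entered the tests through its level in TGFB KO alone, differed by -4.50 (adjusted p = 0.00793) and the gelatinase gene Mmp2 by 1.78 (0.0282). The T cell gene Cd3g rose in both, by 4.14 in IFNko TGFB1 KO and by 2.13 in TGFB KO, a difference of 2.01 (0.0416). Col3a1 is listed because every IFNko TGFB1 KO array lay above every INFko TGFB+ array (0.48) and every TGFB KO array below every wild type array (-0.41), but its difference of 0.90 did not pass (adjusted p = 0.238). Lrat, Reln and Tagln also had effects of opposite sign without overlap, although the effect of 0.33 for Reln in IFNko TGFB1 KO and that of -0.49 for Tagln in TGFB KO did not pass on their own.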

How the results depend on the processing

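Of 24 collagen results past the threshold, 12 passed under every alternative that could be run, and none of the 24 changed direction. The 12 include Col4a4 in TGFB KO, which entered the tests through the groups that kept Tgfb1. Over all of them 415 of 501 recomputed values stayed past the threshold and 86 did not. Under median centring 6 collagens passed in IFNko TGFB1 KO against INFko TGFB+, 0 in the difference of the TGFB effects and 3 in IFNko TGFB1 KO against TGFB KO, where 10, 1 and 5 had passed. For the difference of effects, 0 passed with the deposited scaling, with no filter and with the mean of all probe sets, and 2 with a pseudocount of 64. For IFNko TGFB1 KO against TGFB KO, 2 passed with a pseudocount of 1, 8 with a pseudocount of 64, 2 with no filter and 8 with the filter at the 60th percentile. The causes were not tested, beyond that a filter changes how many genes are adjusted over. Leaving out each array in turn gave 6 to 10 collagens in TGFB KO against wild type, 9 to 14 in IFNko TGFB1 KO against INFko TGFB+, 0 to 1 in the difference, 1 to 7 in IFNko TGFB1 KO against TGFB KO and 0 to 0 in INFko TGFB+ against wild type. Without IFNko TGFB1 KO 1, the array that stood apart, 3 passed in IFNko TGFB1 KO against TGFB KO. In INFko TGFB+ against wild type 0 passed under every alternative. The shares of all genes that passed under each alternative are not given beside these counts or those further above. The counts therefore do not show whether collagens moved more than other genes.

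The replicate numbers were shared between groups without a stated pairing, and correlations of same-numbered arrays ran from -0.08 to 0.34. With the replicate number as a block, 7 collagens passed in TGFB KO against wild type, 11 in IFNko TGFB1 KO against INFko TGFB+, 0 in the difference of effects, 3 in IFNko TGFB1 KO against TGFB KO and 0 in INFko TGFB+ against wild type. Shares of all genes are not given beside these counts either.

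Precision is limited by 3 mice per group and, for the dim collagens, by signals close to the lowest on the arrays, where no change can be read.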
